A study of Mus musculus with 12 samples.

Results

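The genes described here encode the proteins of the ribosome and the factors that load it onto mRNA. They were taken by symbol from exon arrays of sorted mouse keratinocytes, as cytosolic ribosomal proteins (Rpl, Rps and Rplp genes), mitochondrial ribosomal proteins (Mrpl and Mrps genes) and initiation factors with their kinases and binding proteins (Eif genes). The rule used no measured value, but it was chosen with earlier results of these data known. Of the 11287 genes with probe sets of their own in the deposited table, 122 met this rule. They comprised 20 cytosolic ribosomal proteins, 67 mitochondrial ribosomal proteins and 35 Eif genes. The mouse RefSeq annotation holds 80, 78 and 56 protein-coding genes with such symbols, so the cytosolic set in particular is a small part of its family.

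The arrays compared 4 groups of cells of female mice, taken at 9.5 weeks of age from the epidermis of the back, when hair follicles rest, with 3 arrays a group and 12 in all. They were CD34+ITGA6+ keratinocytes from K14ΔNLef1 mice, the same population from wild-type (WT) mice, ITGA6+ keratinocytes from K14ΔNLef1 mice and ITGA6+ keratinocytes from WT mice. CD34 marks stem cells of the hair follicle bulge, and ITGA6 (integrin α6) marks keratinocytes on the basement membrane. The study's methods give the ITGA6+ population as negative for CD34. In K14ΔNLef1 mice the keratin 14 promoter, active in basal epidermal cells, drives a Lef1 transcription factor that lacks its amino terminus and cannot bind β-catenin, whereas WT mice carry no transgene. The labels give the 3 arrays of each group as biological replicates but do not say whether animals were pooled, so the p-values measure the spread between these arrays.

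The ribosome of the cytosol joins ribosomal RNA with a large set of proteins in a small and a large subunit, and most of its protein mRNAs carry a pyrimidine tract at their start that ties their translation to the kinase mTOR. A separate ribosome in mitochondria, built from the Mrpl and Mrps proteins made in the cytosol, translates the few mRNAs of the mitochondrial genome. The eIF2 complex brings the initiator tRNA, eIF3 organises the small subunit at the start of translation, and the eIF4 factors bind the cap of the mRNA. Bulge stem cells of resting follicles divide rarely, and low protein synthesis has been described for hair follicle stem cells in mice.

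The start sites of cytosolic ribosomal protein genes are shown because the tract is the best known feature that this family shares. In windows of 30 bases centred on the RefSeq start (build GRCm38.p6), a run of at least 8 consecutive C or T on the strand of the gene was found for 8 of the 16 cytosolic members with a promoter entry, against 8 of 27 Eif genes (29.6%), 6 of 59 mitochondrial members (10.2%) and 3760 of all 27025 genes (13.9%). The windows of 6 that passed the filter on low values follow, each on the plus strand from 5′ to 3′, with the longest run in capitals. Genes on a chromosome left out of this listing are not shown, so the 6 may not be all. For a gene with several annotated starts, the start with the longest run is shown.

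Rpl14, chr9:120571502-120571531: gggcgggCCCTCTCTCTTCTCgctgagcgc
Rpl27a, chr7:109519180-109519209: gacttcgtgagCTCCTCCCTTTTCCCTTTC
Rpl31, chr1:39367836-39367865: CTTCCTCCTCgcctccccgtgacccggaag
Rpl4, chr9:64173372-64173401: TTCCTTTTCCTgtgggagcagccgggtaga
Rps27l, chr9:66946071-66946100: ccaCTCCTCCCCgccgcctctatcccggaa
Rps9, chr7:3704026-3704055: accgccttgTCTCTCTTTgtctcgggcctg

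Among the windows shown, the longest run was that of Rpl27a, with 19 bases up to the edge of the window. The next was that of Rpl14, with 14 bases across the annotated start. The runs of Rpl31, Rpl4 and Rps27l lay wholly upstream of the annotated start, and so outside the annotated mRNA. A run is a match of letters and not a mapped start of the mRNA.

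Cd34 and Lef1, which define the groups, were read first. On the log2 intensity scale Cd34 averaged 11.40 ± 0.27 in CD34+ITGA6+ and 5.33 ± 0.23 in ITGA6+ cells of K14ΔNLef1 mice, and 11.81 ± 0.17 against 5.37 ± 0.12 in WT mice (SD, n = 3 each). Lef1 measured 12.49 to 12.71 on K14ΔNLef1 arrays and 5.99 to 7.15 on WT arrays, and Itga6 measured 10.45 to 11.07 on CD34+ITGA6+ arrays and 11.48 to 11.79 on ITGA6+ arrays. One field of the labels swaps the populations, naming the CD34+ITGA6+ samples basal and the others bulge, and Cd34 sides with the sample titles. All 7 keratinocyte markers lay above the array medians in each group. Eif2s3x, the X-linked gene of the eIF2 γ subunit, lay at 8.65 to 10.21, and its Y-linked copy Eif2s3y stayed at 4.89 to 6.87, below the median of each array, on these arrays from female mice. Array medians ran from 7.35 to 7.63, lowest on the second CD34+ITGA6+ array of either genotype, and within a group Pearson's r over all probe sets was 0.909 to 0.936.

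A gene's value was the median log2 intensity over its probe sets, and 1 unit of a difference is a factor of 2. Genes entered the test when their value exceeded the array's median probe set on at least 3 of the 12 arrays, and a gene was called if its p-value from limma, adjusted by Benjamini-Hochberg over all 5712 genes tested, was under 0.05. Of the 122 members, 106 were tested: 15 cytosolic, 59 mitochondrial and 32 Eif genes. The other 16 were Eif2ak4, Eif2b4, Eif2s3y, Mrpl20, Mrpl22, Mrpl27, Mrpl32, Mrpl38, Mrpl45, Mrps11, Mrps27, Rpl34, Rpl35a, Rpl37, Rpl39l and Rpl3l, of which 15 were above the median on 0 arrays and Mrpl20 on 2. Of the tested members, 74 were above it on all 12 arrays. Ribosomal protein genes have many processed copies in the genome, so probe sets of the cytosolic genes may also bind related sequence, and such values are uncertain.

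The levels of the 3 sets separated mainly by population. The median cytosolic ribosomal protein lay at 10.35, 9.78 and 9.78 in CD34+ITGA6+ cells and at 10.58, 10.74 and 10.15 in ITGA6+ cells of K14ΔNLef1 mice, and at 10.01, 9.81 and 10.39 against 10.36, 10.35 and 10.76 in the same populations of WT mice. The median Eif gene lay at 8.81, 8.63 and 8.88 in CD34+ITGA6+ cells against 9.27, 9.10 and 9.32 in ITGA6+ cells of K14ΔNLef1 mice, and at 8.90, 8.66 and 8.80 against 8.98, 9.28 and 9.27 in WT mice. The Eif medians of the CD34+ITGA6+ arrays thus all lay below those of the ITGA6+ arrays, whereas the cytosolic medians overlapped in both genotypes. The median mitochondrial ribosomal protein lay at 8.35, 7.80 and 8.13 against 8.63, 8.53 and 8.56 in K14ΔNLef1 mice, which did not overlap. The WT values were 8.31, 7.92 and 8.30 against 8.36, 8.36 and 8.63, again without overlap but close. Less each array's median over all tested genes, these WT values overlapped, at 0.09, -0.04 and 0.08 against 0.17, 0.08 and 0.19. Those of K14ΔNLef1 mice still did not, nor did the Eif medians. The median of all tested genes ran from 7.96 to 8.23 on CD34+ITGA6+ arrays and from 8.20 to 8.44 on ITGA6+ arrays. As these are bulk samples, fewer cells of a type and less RNA per cell cannot be told apart.

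**Figure D1:**
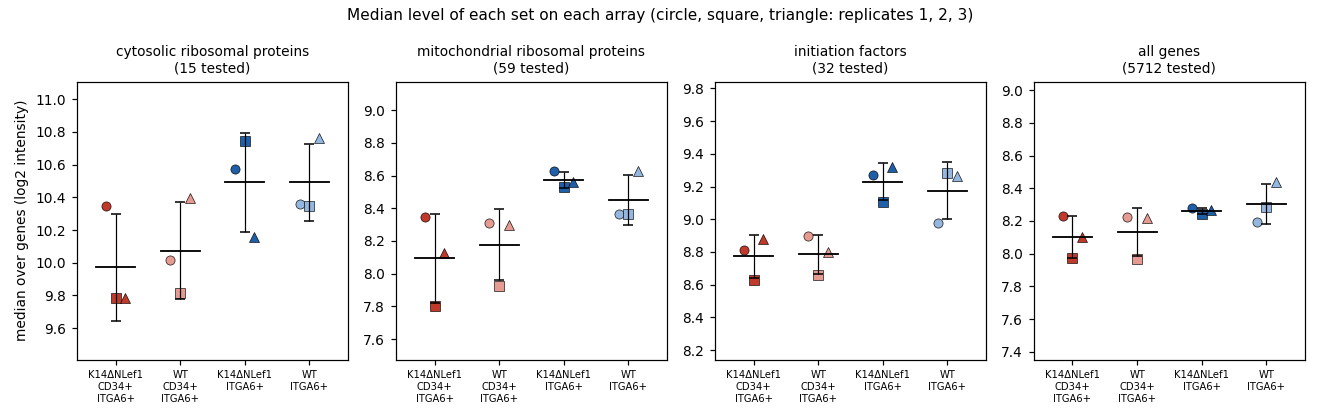
Median log2 intensity of each set of genes on each array, with 1 point per array and the mean and SD of the 3 arrays of a group as lines. The initiation factor medians of the 6 CD34+ITGA6+ arrays (8.63 to 8.90) lie below those of the 6 ITGA6+ arrays (8.98 to 9.32), and the genotypes overlap within each population.

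The population comparison asks how bulge stem cells differ from other basal keratinocytes. In K14ΔNLef1 mice, 97 of the 106 tested members were lower in CD34+ITGA6+ than in ITGA6+ cells, beside 65.8% of all tested genes, and in WT mice 95 were, beside 66.6%. In both genotypes 89 of the 106 were lower (84.0%), beside 52.7% of all genes. These were 13 of 15 cytosolic ribosomal proteins, 47 of 59 mitochondrial ribosomal proteins and 29 of 32 Eif genes. With array medians set equal, 95 and 90 members were lower in K14ΔNLef1 and WT mice, beside 57.1% and 57.7% of all genes.

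Few of these differences passed the test for a single gene. In K14ΔNLef1 mice 12 members were called, all lower in CD34+ITGA6+ cells (11.3% of those tested), where 12.9% of all genes were called in either direction, 4.62% higher and 8.28% lower. In WT mice 8 members were called, all lower (7.55%), where 17.2% of all genes were called, 5.72% higher and 11.5% lower. The members' share of calls was thus near or below that of all genes called in either direction. Beside all genes called lower, it was above in K14ΔNLef1 mice (11.3% against 8.28%) and below in WT mice (7.55% against 11.5%). The 3 arrays of CD34+ITGA6+ cells all lay below the 3 of ITGA6+ cells for 35 members in K14ΔNLef1 mice (33.0%) and 34 in WT mice (32.1%), beside 22.8% and 22.4% of all genes, and for 0 members did they all lie above, beside 9.12% and 9.47% of all genes.

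The size of the shift was similar among the sets. The median difference between CD34+ITGA6+ and ITGA6+ cells of K14ΔNLef1 mice was -0.57 for the cytosolic, -0.41 for the mitochondrial and -0.42 for the Eif set, beside -0.15 for all tested genes. In WT mice the medians were -0.44, -0.32 and -0.42, in the same order, beside -0.17. Over all members, tested or not, they were -0.41, -0.41 and -0.39 in K14ΔNLef1 mice and -0.44, -0.30 and -0.41 in WT mice, beside -0.07 for all genes in each genotype. Without the second K14ΔNLef1 CD34+ITGA6+ array, the cytosolic and Eif medians in K14ΔNLef1 mice came to -0.28 and -0.25.

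**Figure D2:**
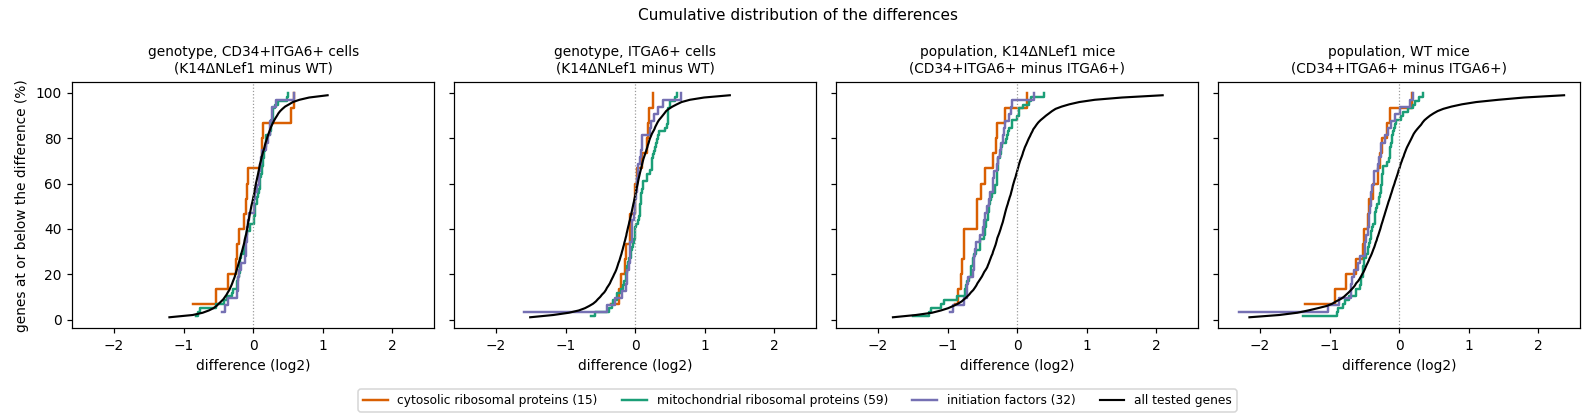
Cumulative share of genes (%) at or below each difference on the log2 scale, for the 3 sets and for all tested genes (drawn at its percentiles), in the 4 comparisons. The curves of the sets lie left of that of all genes in both population panels (set medians -0.57 to -0.32, all genes -0.15 and -0.17) and close to it in both genotype panels.

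Sums over markers of other cells and states were compared between the populations too. The mitotic, suprabasal, melanocyte and fibroblast sums did not overlap in either genotype, whereas the immune and endothelial sums overlapped in both. The summed intensity of the 9 measured of 11 mitotic markers, on a linear scale, was 1482 to 1876 in CD34+ITGA6+ cells and 3730 to 4022 in ITGA6+ cells of K14ΔNLef1 mice, and 879 to 1311 against 1680 to 2324 in WT mice. That of the 4 measured of 8 suprabasal markers was 3681 to 4436 against 5268 to 5732 in K14ΔNLef1 mice and 1916 to 4177 against 7673 to 7900 in WT mice, with Ivl at or below the array medians in all groups. The melanocyte sum was 1181 to 1705 against 526.7 to 618.1 in K14ΔNLef1 mice and 1531 to 1743 against 610.3 to 682.9 in WT mice, with Dct, Tyr, Tyrp1, Sox10 and Kit at or below the medians in every group. Of the 7 measured melanocyte markers, 6 were at or below the medians in both CD34+ITGA6+ groups. Only 1 was tested, and it was called higher there, by 2.70 in K14ΔNLef1 and 2.57 in WT mice. The melanocyte sum therefore does not show a shift of these markers as a set. The immune sum was 1102 to 1914 against 701.4 to 1482 in K14ΔNLef1 mice and 679.8 to 1326 against 670.4 to 724.8 in WT mice, with Ptprc, Cd3e and Lyz2 at or below the medians throughout. The sum of the 7 fibroblast markers was 700.0 to 850.6 against 617.6 to 666.6 in K14ΔNLef1 mice and 744.3 to 756.9 against 636.5 to 659.2 in WT mice, without overlap. Of the 2 of them tested, Col1a2 was called higher in CD34+ITGA6+ cells of both genotypes (0.62 ± 0.17 (adjusted p = 0.0293) in K14ΔNLef1 and 0.71 ± 0.17 (adjusted p = 0.01) in WT mice), while Col3a1, Pdgfra, Dcn, Lum and Dpt were at or below the medians in every group. The endothelial sum was 345.6 to 586.1 against 339.4 to 401.4 in K14ΔNLef1 mice and 379.7 to 488.9 against 336.6 to 389.9 in WT mice, with Pecam1, Cdh5, Kdr and Tie1 at or below the medians throughout. The part of these cells in the differences of the translation genes was not tested.

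Among the proteins of the large cytosolic subunit, 2 were called in K14ΔNLef1 mice. Rpl8, a core protein near the catalytic centre, measured 11.39, 10.57 and 10.84 in CD34+ITGA6+ cells and 11.60, 11.78 and 11.73 in ITGA6+ cells of K14ΔNLef1 mice, a difference of -0.77 ± 0.23 (adjusted p = 0.0437), with all 7 probe sets lower. WT mice gave 11.47, 10.74 and 11.30 against 11.66, 11.48 and 11.68, and the difference was -0.44 ± 0.23 (adjusted p = 0.232). The arrays of the populations did not overlap in either genotype, with the ITGA6+ arrays close together and the CD34+ITGA6+ arrays spread. Rpl4, which lines part of the exit tunnel, measured 8.34, 7.25 and 8.13 against 8.72, 8.75 and 8.64 in K14ΔNLef1 mice, a difference of -0.80 ± 0.25 (adjusted p = 0.0487) from a single probe set. In WT mice, where the groups overlapped, the difference was -0.18 ± 0.25 (adjusted p = 0.674). The call for Rpl8 was lost without replicate 2 or 3 of the K14ΔNLef1 CD34+ITGA6+ arrays or any 1 ITGA6+ array of either genotype (adjusted p up to 0.188), and that for Rpl4 without any of these or any 1 WT CD34+ITGA6+ array (adjusted p up to 0.202).

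In WT mice the cytosolic calls were Rplp0 and Rps20. Rplp0, the base of the stalk that recruits translation factors, measured 8.30, 7.18 and 8.38 in WT CD34+ITGA6+ cells and 8.69, 9.23 and 10.01 in WT ITGA6+ cells (-1.36 ± 0.41, adjusted p = 0.0328), and 8.87, 7.65 and 8.98 against 9.50, 9.06 and 9.38 in K14ΔNLef1 mice (-0.81 ± 0.41, adjusted p = 0.227). The populations did not overlap in either genotype, and the second CD34+ITGA6+ array was the lowest in each. The WT call was lost when WT CD34+ITGA6+ replicate 2 was left out, or replicate 2 or 3 of the WT ITGA6+ arrays (adjusted p up to 0.155). Rps20, a protein of the head of the small subunit with 1 probe set, measured 10.01, 9.70 and 9.67 against 10.75, 10.58 and 10.84 in WT mice, without overlap, a difference of -0.93 ± 0.23 (adjusted p = 0.0119). In K14ΔNLef1 mice it measured 10.35, 9.48 and 9.93 against 10.58, 10.74 and 10.15, with the groups overlapping (-0.57 ± 0.23, adjusted p = 0.126). The WT call of Rps20 held in each of the 24 alternatives in which it was tested, with adjusted p up to 0.0489.

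The cytosolic genes whose start-site windows are shown covered a range of differences. Rpl14 differed by -0.90 ± 0.34 in K14ΔNLef1 mice and -0.63 ± 0.34 in WT mice, while Rpl31 differed by -0.17 and -0.30, Rps9 by -0.35 and -0.25, and Rps27l by -0.47 and -0.13. Only Rpl4 among the 6 was called, in K14ΔNLef1 mice. Rpl27a, with the longest run among the 6, differed by -0.86 ± 0.31 (adjusted p = 0.0919) in K14ΔNLef1 mice and by 0.18 ± 0.31 (adjusted p = 0.745) in WT mice. Rps25, of the small subunit, was the other cytosolic member without the same sign in both, at 0.15 in K14ΔNLef1 mice and -0.51 in WT mice. The lowest cytosolic differences were those of Rpl14 and Rpl27a in K14ΔNLef1 mice and of Rplp0 and Rps20 in WT mice, and the difference of each but the last 2 missed the threshold.

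Of the mitochondrial ribosomal proteins, 8 were called in K14ΔNLef1 mice and 3 in WT mice, of 59 tested. Mrpl43, of the large subunit, measured 6.78, 6.97 and 6.52 in CD34+ITGA6+ cells and 8.21, 8.57 and 7.97 in ITGA6+ cells of K14ΔNLef1 mice, a difference of -1.49 ± 0.31 (adjusted p = 0.00547). These CD34+ITGA6+ values lie under the array medians, and the gene was above the median on only 4 arrays, so it entered the test through the group where it was high. WT mice gave 7.03, 6.38 and 7.42 against 8.46, 7.42 and 7.39, and the difference was -0.81 ± 0.31 (adjusted p = 0.0928). Mrpl50 measured 8.26, 7.50 and 7.99 against 9.09, 9.09 and 8.87 in K14ΔNLef1 mice, with no overlap, a difference of -1.10 ± 0.24 (adjusted p = 0.00796) and 4 of 5 probe sets lower. In WT mice it measured 8.54, 8.45 and 9.23 against 8.95, 9.37 and 9.26, where the groups overlapped (-0.45 ± 0.24, adjusted p = 0.234). The call of Mrpl50 in K14ΔNLef1 mice held in each of the 24 alternatives in which it was tested.

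Mrps28, of the small subunit, was the only mitochondrial member called in both genotypes. It measured 7.75, 7.06 and 6.98 in CD34+ITGA6+ cells and 9.02, 8.21 and 8.34 in ITGA6+ cells of K14ΔNLef1 mice, a difference of -1.26 ± 0.39 (adjusted p = 0.0467). The WT values were 6.73, 6.61 and 7.90 against 7.72, 8.62 and 9.05, a difference of -1.38 ± 0.39 (adjusted p = 0.0239), with 1 array of each group in the range of the other. All 3 of its probe sets were lower in both genotypes. Among its CD34+ITGA6+ values only 7.75 and 7.90 lay above the array median, whereas all its ITGA6+ values did. The gene thus entered the test through the population where it was high, and its difference was partly fixed by that entry. The call depended on single arrays: in K14ΔNLef1 mice it was lost without replicate 2 or 3 of its CD34+ITGA6+ arrays, any 1 of its ITGA6+ arrays, WT CD34+ITGA6+ replicate 1 or WT ITGA6+ replicate 2 (adjusted p up to 0.179), and in WT mice without replicate 1 or 2 of the CD34+ITGA6+ or replicate 2 or 3 of the ITGA6+ arrays (adjusted p up to 0.117).

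Mrpl40 fell in CD34+ITGA6+ cells of K14ΔNLef1 mice to 8.01, 7.01 and 7.08, against 8.42, 8.53 and 8.86 in ITGA6+ cells, so that the difference was -1.24 ± 0.29 (adjusted p = 0.0111). In WT mice it measured 8.44, 7.47 and 7.80 against 7.80, 8.16 and 8.06, and the difference was -0.10 ± 0.29 (adjusted p = 0.85). Mrps10, with 1 probe set, measured 7.69, 7.26 and 7.71 against 8.10, 8.13 and 8.48 in K14ΔNLef1 mice (-0.69 ± 0.19, adjusted p = 0.0319) and 7.88, 8.04 and 7.89 against 7.84, 8.04 and 7.56 in WT mice (0.12 ± 0.19, adjusted p = 0.718). Both genes therefore separated the populations in K14ΔNLef1 mice and overlapped in WT mice, and the difference between those contrasts was itself not called (adjusted p = 0.298 for Mrpl40 and 0.256 for Mrps10, limma). The K14ΔNLef1 call of Mrpl40 was lost without CD34+ITGA6+ replicate 2 or ITGA6+ replicate 3 (adjusted p up to 0.0569), and that of Mrps10 without CD34+ITGA6+ replicate 2 or any 1 ITGA6+ array and with array medians set equal (adjusted p up to 0.145).

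Mrps9, Mrpl4 and Mrps23 were the other mitochondrial calls in K14ΔNLef1 mice. Mrps9 measured 8.27, 7.55 and 7.59 against 8.47, 8.54 and 8.58, a difference of -0.73 ± 0.21 (adjusted p = 0.034) with 11 of 13 probe sets lower, and Mrpl4 measured 7.92, 7.59 and 8.09 against 8.41, 8.50 and 8.68, a difference of -0.66 ± 0.20 (adjusted p = 0.0423) with 5 of 7 lower. Mrps23 measured 7.20, 6.56 and 7.17 against 7.72, 7.63 and 7.60, a difference of -0.67 ± 0.20 (adjusted p = 0.0443), and it too was above the median on only 4 arrays. The 3 genes showed no overlap in K14ΔNLef1 mice, nor did Mrps9 and Mrps23 in WT mice, where their differences were -0.42, -0.35 and -0.48, in the order given, and were not called. The WT calls were Mrpl3, at 7.51, 7.17 and 8.33 against 8.26, 8.55 and 8.84 (-0.88 ± 0.28, adjusted p = 0.0458), and Mrpl54, at 7.71, 8.26 and 7.84 against 9.06, 8.17 and 9.26 (-0.89 ± 0.28, adjusted p = 0.0415). Mrpl3 was lower in all 12 of its probe sets, although the third WT CD34+ITGA6+ array lay above the lowest ITGA6+ array. In K14ΔNLef1 mice Mrpl3 differed by -0.86 ± 0.28 and Mrpl54 by -0.67 ± 0.28, which were not called. All 5 calls rested on single arrays. Those of Mrps9, Mrpl4 and Mrps23 were lost without K14ΔNLef1 CD34+ITGA6+ replicate 2 or any 1 K14ΔNLef1 ITGA6+ array, Mrps9 and Mrps23 also without K14ΔNLef1 CD34+ITGA6+ replicate 3, Mrpl4 without replicate 1 of that group or WT ITGA6+ replicate 2 or 3, and Mrps23 without WT ITGA6+ replicate 1 or 2. Those of Mrpl3 and Mrpl54 were lost without WT CD34+ITGA6+ replicate 1, WT ITGA6+ replicate 3 or any 1 K14ΔNLef1 CD34+ITGA6+ array, Mrpl3 also without replicate 2 of either WT group or K14ΔNLef1 ITGA6+ replicate 1, and Mrpl54 without WT CD34+ITGA6+ replicate 3, WT ITGA6+ replicate 1 or K14ΔNLef1 ITGA6+ replicate 3. The adjusted p without these arrays or under another setting reached 0.196 for Mrps9 and Mrpl4, 0.197 for Mrps23, 0.212 for Mrpl3 and 0.183 for Mrpl54. With array medians set equal Mrps23, Mrpl3 and Mrpl54 were not called. With the replicate number as a block within each genotype Mrpl54 was not called in WT mice (adjusted p = 0.0649), and with 1 block per number over both genotypes Mrpl3 was not (adjusted p = 0.0617).

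The mitochondrial set also held most of the genes that were not lower in both genotypes. Mrpl12, the partner of the mitochondrial RNA polymerase as well as a ribosomal protein, differed by 0.20 in K14ΔNLef1 and 0.28 in WT mice, and Mrpl16 by 0.08 and 0.02. Mrpl37 and Mrpl58, a release factor built into the ribosome, were lower in K14ΔNLef1 mice (-0.41 and -0.12) and higher in WT mice (0.34 and 0.19), while Mrpl47 and Mrps31 had the opposite pair of signs. Apart from Mrps10 in K14ΔNLef1 mice, none of the 12 mitochondrial members not lower in both was called in either genotype, with limma adjusted p from 0.332 to 0.997.

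Among the Eif genes, the eIF3 complex had the most tested members. Of its 9 subunits, 8 were lower in CD34+ITGA6+ cells of both genotypes, and Eif3g, an RNA-binding subunit, was called in both. It measured 9.58, 8.66 and 9.48 in CD34+ITGA6+ cells and 9.98, 10.42 and 10.20 in ITGA6+ cells of K14ΔNLef1 mice (-0.96 ± 0.27, adjusted p = 0.0288), and 9.73, 8.87 and 9.30 against 9.98, 10.20 and 10.31 in WT mice (-0.86 ± 0.27, adjusted p = 0.0387). The populations did not overlap, all 7 probe sets were lower in each genotype, and the second CD34+ITGA6+ array was the lowest. Without it, Eif3g was not called in that genotype (adjusted p = 0.136 in K14ΔNLef1 and 0.165 in WT mice, limma). The call was lost in K14ΔNLef1 mice also without ITGA6+ replicate 2 or 3, in WT mice without CD34+ITGA6+ replicate 3, any 1 ITGA6+ array or K14ΔNLef1 ITGA6+ replicate 3, and in both with the mean over probe sets. With the replicate number as a block within each genotype, the limma adjusted p was 0.0512 in K14ΔNLef1 and 0.0629 in WT mice, so both calls were lost as well.

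Eif3b, part of the eIF3 core, and Eif3f were chosen after their values were seen, as the other subunits whose populations did not overlap in either genotype. Eif3b differed by -0.62 ± 0.22 (adjusted p = 0.0866) in K14ΔNLef1 mice and -0.68 ± 0.22 (adjusted p = 0.0503) in WT mice, and Eif3f by -0.71 ± 0.23 (adjusted p = 0.058) and -0.70 ± 0.23 (adjusted p = 0.0504), none of them past the threshold. Eif3i was the subunit with opposite signs, at -0.46 in K14ΔNLef1 mice and 0.15 in WT mice. Only 2 members of the 106, Eif3g and Mrps28, were called lower in both genotypes (1.89%), beside 286 of all genes (5.01%). Of these members, Mrps28 had entered the test through the population where it was high.

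Of the cap-binding factors and their regulators, Eif4ebp2, a repressor that holds eIF4E when mTOR is inactive, measured 8.02, 7.73 and 7.63 in CD34+ITGA6+ cells and 8.41, 8.72 and 8.41 in ITGA6+ cells of K14ΔNLef1 mice. The difference was -0.73 ± 0.19 (adjusted p = 0.0224), and all 8 probe sets were lower. In WT mice it measured 8.28, 7.91 and 7.83 against 8.29, 8.59 and 8.60 (-0.49 ± 0.19, adjusted p = 0.101), again without overlap. The K14ΔNLef1 call was lost without replicate 2 or 3 of the CD34+ITGA6+ arrays or ITGA6+ replicate 2 (adjusted p up to 0.0919). Eif4ebp1, its close relative, differed by -0.29 and -0.69 and Eif4enif1, which carries eIF4E into the nucleus, by -0.08 and -0.12 in K14ΔNLef1 and WT mice, with no call. Eif4a2, a helicase of the cap complex, differed by -0.08 and 0.01.

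The eIF2 genes brought 0 calls in the population comparisons (limma, 3 of 7 tested eIF2 and eIF2B genes at an unadjusted p under 0.05 in K14ΔNLef1 mice and 0 in WT mice). The most negative of them in K14ΔNLef1 mice was Eif2s2, the β subunit of eIF2, at -0.92 ± 0.37 (adjusted p = 0.122), and its WT difference was -0.27 ± 0.37 (adjusted p = 0.667). Eif2d, which despite its name works beside the eIF2 complex, was the only Eif gene higher in both, by 0.24 and 0.19, and was not called. Eif1ad, named for a domain like that of eIF1A, measured 6.87, 7.58 and 7.35 in CD34+ITGA6+ cells and 7.92, 8.13 and 8.85 in ITGA6+ cells of WT mice. The difference was -1.03 ± 0.31 (adjusted p = 0.0323), with all 9 probe sets lower and no overlap, and in K14ΔNLef1 mice it was -0.33 ± 0.31 (adjusted p = 0.556). The WT call was lost without replicate 1 or 3 of the CD34+ITGA6+ arrays or replicate 2 or 3 of the ITGA6+ arrays (adjusted p up to 0.154).

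The gene value of Eif4e3, a cap-binding member of the eIF4E family, was above the array medians in WT ITGA6+ cells only. It measured 6.80, 6.63 and 5.70 in WT CD34+ITGA6+ cells and 8.31, 8.61 and 9.11 in their ITGA6+ counterparts, a difference of -2.30 ± 0.34 (adjusted p = 2.23e-04). In K14ΔNLef1 mice it measured 5.97, 6.98 and 6.54 against 6.63, 7.46 and 7.16, a difference of -0.59 ± 0.34 (adjusted p = 0.296). The WT ITGA6+ arrays thus stood above the other 9, which lay at or below the array medians. The gene passed the filter through those 3 arrays only, so a difference involving them was partly fixed by its entry into the test. Its differences and adjusted p are therefore given as a description and support nothing, and as 9 arrays lie at or below the medians they are not read as folds.

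In ITGA6+ cells the difference of Eif4e3 between K14ΔNLef1 and WT mice was -1.60 ± 0.34 (adjusted p = 0.0116), whereas in CD34+ITGA6+ cells the genotypes differed by 0.12 ± 0.34 (adjusted p = 0.967). The difference between these effects was 1.72 ± 0.47 and was not called (adjusted p = 0.113, unadjusted p = 0.00287). Of its 6 probe sets, 5 were lower and 1 higher in K14ΔNLef1 ITGA6+ cells, with differences from -1.92 to 0.19. They lay at unlike levels. The brightest averaged 9.29 in K14ΔNLef1 and 9.69 in WT CD34+ITGA6+ cells, and 9.58 and 10.19 in ITGA6+ cells, above the array medians in each group. Its genotype difference in ITGA6+ cells was -0.61. The gene value is a median over these probe sets, so a low value does not show that the gene was undetected. The genotype call in ITGA6+ cells was lost without the first K14ΔNLef1 ITGA6+ array (adjusted p = 0.0602) or the third WT ITGA6+ array (adjusted p = 0.0638).

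**Figure D3:**
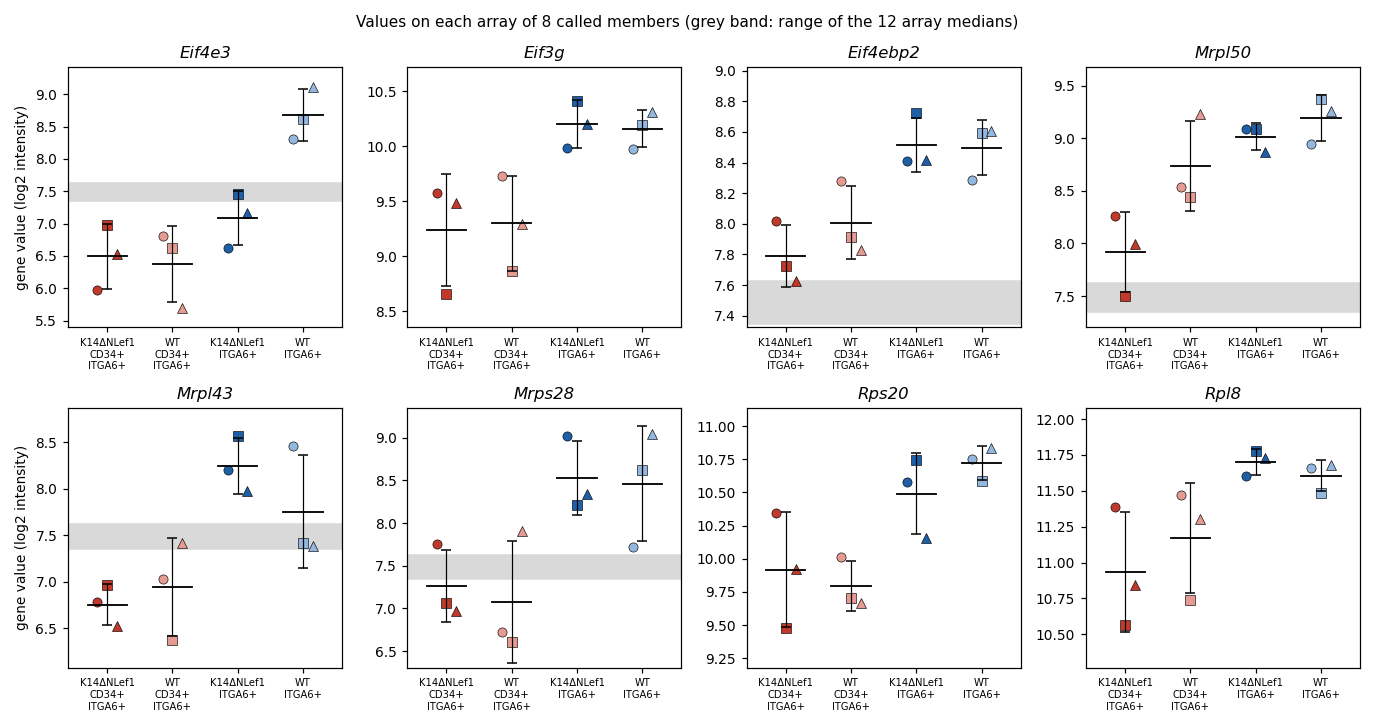
Log2 intensity of 8 called members on each array, with 1 point per array (circle, square and triangle for replicates 1, 2 and 3), the mean and SD of each group as lines, and the range of the 12 array medians (7.35 to 7.63) as a grey band. The gene value of Eif4e3 stands above the band on the 3 WT ITGA6+ arrays only, and Eif3g and Rpl8 are lower on the CD34+ITGA6+ arrays of both genotypes.

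Leaving out single arrays moved the counts of calls. In K14ΔNLef1 mice the 12 calls became 2 without the second CD34+ITGA6+ array, 7 without the third and 22 without the first, became 6, 4 and 3 without replicate 1, 2 and 3 of the ITGA6+ arrays, and 7 without the second WT ITGA6+ array. In WT mice the 8 calls became 4 without the second CD34+ITGA6+ array, 4 without the second ITGA6+ array and 2 without the third. Without the second CD34+ITGA6+ array of both genotypes, 3 members were called in K14ΔNLef1 and 4 in WT mice, while 93 and 85 of the 106 were lower, beside 59.4% and 59.7% of all genes. Across all alternatives that tested the gene, the calls of Mrpl50 in K14ΔNLef1 mice and of Rps20 in WT mice were kept throughout. Those of Mrpl43 in K14ΔNLef1 mice and Eif4e3 in WT mice were kept too, but these genes were above the array median on only 4 and 3 arrays, so that says nothing of their stability. Each other call was lost in 2 to 15 alternatives.

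The genotype comparison asks what ΔNLef1 changes within a population. In CD34+ITGA6+ cells 0 of 106 members were called by limma, where 1.91% of all genes were, 0.7% higher and 1.21% lower, and 4 had an unadjusted p under 0.05, beside 10% of all genes. In ITGA6+ cells Eif4e3 was the only member called (0.943%), where 5.3% of all genes were, 2.08% higher and 3.22% lower, and 4 had an unadjusted p under 0.05, beside 15.3% of all genes. The median differences between K14ΔNLef1 and WT mice were -0.10 for the cytosolic, 0.03 for the mitochondrial and 0.01 for the Eif set in CD34+ITGA6+ cells, beside -0.03 for all genes. In ITGA6+ cells they were -0.0050, 0.07 and -0.0044, beside -0.03, and with array medians set equal all 3 were positive, at 0.03, 0.11 and 0.03. The 95% confidence interval of the difference lay within ±1 for 89 of 106 members in CD34+ITGA6+ cells and for 92 in ITGA6+ cells, beside 83.2% and 78.5% of all genes.

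The most different cytosolic genes in CD34+ITGA6+ cells were Rpl27a, at -0.87 ± 0.31 (adjusted p = 0.278), and Rps25, at 0.58 ± 0.22 (adjusted p = 0.316). Rpl27a measured 10.55, 9.21 and 9.71 in K14ΔNLef1 and 10.88, 10.26 and 10.94 in WT CD34+ITGA6+ cells, with overlap, while Rps25 measured 9.80, 9.85 and 9.76 against 8.82, 9.44 and 9.42, without. Rpl21 and Rplp0 followed at -0.54 and 0.55. In ITGA6+ cells the cytosolic extremes were Rpl31 and Rps20 (-0.35 and -0.23) and Rps27l and Rpl4 (0.20 and 0.25). None of these was called.

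Among mitochondrial ribosomal proteins, Mrpl50 measured 8.26, 7.50 and 7.99 in K14ΔNLef1 and 8.54, 8.45 and 9.23 in WT CD34+ITGA6+ cells. The arrays did not overlap, and the difference of -0.82 ± 0.24 missed the threshold (adjusted p = 0.143). Mrpl35 differed between K14ΔNLef1 and WT mice by -0.80 ± 0.30 (adjusted p = 0.309) in CD34+ITGA6+ and -0.63 ± 0.30 (adjusted p = 0.341) in ITGA6+ cells. The others at the ends of the range were Mrps17 and Mrpl36 (0.48 and 0.49) in CD34+ITGA6+ cells, and Mrpl51 (-0.58), Mrpl1 (0.58) and Mrpl40 (0.60) in ITGA6+ cells, none of them called.

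Eif4e, the cap-binding protein itself, measured 9.50, 8.70 and 8.10 in K14ΔNLef1 and 8.91, 9.21 and 9.54 in WT CD34+ITGA6+ cells, and 9.23, 9.10 and 9.19 against 9.56, 9.55 and 9.62 in ITGA6+ cells, where the genotypes did not overlap. Its differences of -0.45 ± 0.28 and -0.41 ± 0.28 were not called (adjusted p = 0.695 and 0.578, limma). The other Eif extremes were Eif2s3x (-0.41), Eif4ebp1 (0.33) and Eif1ad (0.58) in CD34+ITGA6+ cells, and Eif3i (0.40) and Eif2s2 (0.66) in ITGA6+ cells, none called.

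The genotypes' arrays did not overlap for 8 tested members in CD34+ITGA6+ cells (7.55%), 3 higher and 5 lower in K14ΔNLef1, beside 12.7% of all genes (4.9% higher and 7.76% lower). In ITGA6+ cells this was so for 10 members (9.43%), 8 higher and 2 lower, beside 22.6% of all genes (9.42% higher and 13.2% lower). The 8 higher ones, chosen after their values were seen, were Mrpl1, Mrpl9, Mrpl28, Mrpl33, Mrpl40, Mrps2, Mrps10 and Mrps23, all of the mitochondrial set, and the 2 lower ones Eif4e and Eif4e3. Those 8 were 13.6% of the 59 tested mitochondrial members, which is below the 22.6% of all genes without overlap and above the 9.42% higher. None of the 8 was called.

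Whether the genotype effect differed between the populations was tested directly. Of the 106 members 0 were called by limma, where 1.54% of all genes were, 0.735% higher and 0.805% lower, and 5 had an unadjusted p under 0.05, beside 9.56% of all genes. Besides Eif4e3, these were Rpl27a (-1.04 ± 0.44, adjusted p = 0.446), Mrpl40 (-1.13 ± 0.41, adjusted p = 0.298), Mrps10 (-0.81 ± 0.28, adjusted p = 0.256) and Mrpl37 (-0.75 ± 0.35, adjusted p = 0.515), the last named after its values were seen. Rpl4 (-0.62), Rps25 (0.66) and Rplp0 (0.55), Eif2s2 (-0.65), Eif3i (-0.62) and Eif1ad (0.70), and Mrpl47 (0.45) and Mrps31 (0.52) completed the ends of the range. The interval of this difference lay within ±1 for only 57 members, beside 53.3% of all genes.

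Other genes of the translation machinery were read for context from lists. Of 27 tested ribosome biogenesis genes, 26 (K14ΔNLef1 mice) and 24 (WT mice) were lower in CD34+ITGA6+ cells, beside 65.8% and 66.6% of all genes, with a median difference of -0.50 in each, beside -0.15 and -0.17. In K14ΔNLef1 mice 7 were called, all lower (25.9%), beside 8.28% of all genes called lower and 12.9% called in either direction. In WT mice 8 were called, all lower (29.6%), beside 11.5% and 17.2%. Nop56, a core protein of the particles that guide methylation of ribosomal RNA, measured 8.76, 8.69 and 9.19 in CD34+ITGA6+ cells and 10.04, 9.52 and 10.25 in ITGA6+ cells of K14ΔNLef1 mice (-1.05 ± 0.25, adjusted p = 0.0113), and 8.20, 8.79 and 8.89 against 9.52, 9.96 and 9.53 in WT mice (-1.04 ± 0.25, adjusted p = 0.00893). The populations did not overlap in either genotype. In K14ΔNLef1 mice Utp14a, of the small subunit processome, differed by -0.75 ± 0.18 (adjusted p = 0.0112) and Gar1, of the particles that guide pseudouridylation, by -1.15 ± 0.29 (adjusted p = 0.0179). In WT mice Riok2 and Ltv1, which act late in small subunit maturation, differed by -1.12 ± 0.22 (adjusted p = 0.00284) and -0.99 ± 0.22 (adjusted p = 0.00619).

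These counts, too, moved with single arrays. The 7 biogenesis calls in K14ΔNLef1 mice became 0 without the second CD34+ITGA6+ array, 2 and 1 without replicate 1 and 3 of the ITGA6+ arrays, and 4 without the second or the third WT ITGA6+ array. The 8 in WT mice became 5 and 3 without the first and second CD34+ITGA6+ array, 5 and 4 without replicate 2 and 3 of the ITGA6+ arrays, and 5 without replicate 1 or 3 of the K14ΔNLef1 ITGA6+ arrays. With array medians set equal 7 and 4 were called, and with no filter on low values 3 and 5. For the genotype effect 0 biogenesis genes were called by limma in either population, with 1 at an unadjusted p under 0.05 in each.

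**Figure D4:**
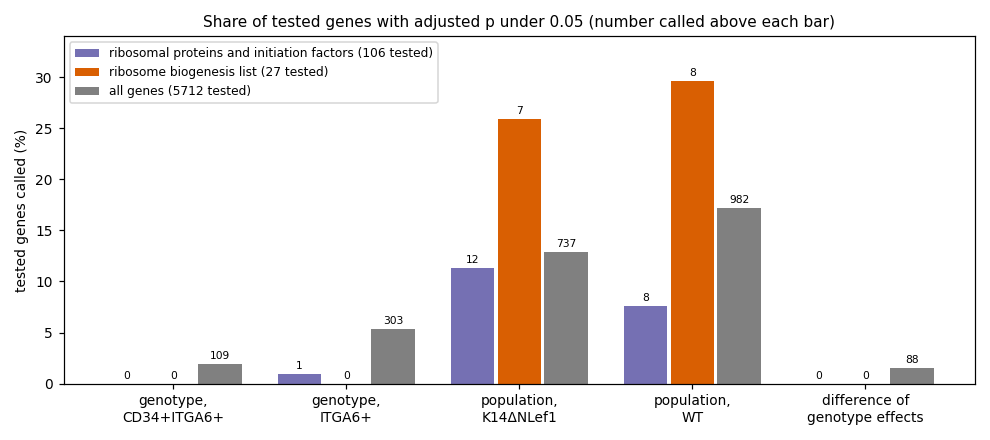
Share of tested genes called (adjusted p under 0.05, %) among the 106 tested ribosomal protein and Eif genes, the 27 tested ribosome biogenesis genes and all 5712 tested genes, in the 5 comparisons, with the number called above each bar. The bars of the ribosomal protein and Eif genes (0%, 0.943%, 11.3%, 7.55% and 0%) are below those of all genes (1.91%, 5.3%, 12.9%, 17.2% and 1.54%) in each comparison. Bars count calls in both directions. Of all genes, 8.28% (K14ΔNLef1 mice) and 11.5% (WT mice) were called lower in the population comparisons.

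The remaining lists held few calls. Among mTOR pathway genes (13 tested), Sesn1, an inhibitor of the pathway, was higher in CD34+ITGA6+ cells of K14ΔNLef1 mice by 0.73 ± 0.19 (adjusted p = 0.0226), and Rheb, its activator, was lower in those of WT mice, with a difference of -0.92 ± 0.23 (adjusted p = 0.0121). Abce1, which splits ribosomes after termination, was the only call of 3 tested termination genes (-0.77 ± 0.23, adjusted p = 0.0425 in K14ΔNLef1 mice). In WT mice 2 of 12 cytosolic aminoacyl-tRNA synthetases, Farsb (-0.76 ± 0.21) and Qars (-0.95 ± 0.27), were called lower. So were 1 of 6 genes on the list of elongation factors, Eef1e1 (-1.30 ± 0.36), and 1 of 6 genes of RNA polymerase I, Taf1d (-0.54 ± 0.16). The adjusted p of Farsb, Qars, Eef1e1 and Taf1d ran from 0.0206 to 0.0327. Of 10 mitochondrial translation factors and of 2 ribosomal proteins outside the symbol rule, 0 were called in any comparison by limma, and in the population comparisons 2 and 4 of the mitochondrial factors, in K14ΔNLef1 and WT mice, and 1 and 0 of those proteins had an unadjusted p under 0.05. For the genotype effect this was so for 1 mitochondrial factor in each population and for 0 of those proteins.

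Among 7 tested targets of the integrated stress response, which follows phosphorylation of eIF2, Asns (-1.42 ± 0.29, adjusted p = 0.00298) and Atf3 (-1.74 ± 0.51, adjusted p = 0.0288) were lower in CD34+ITGA6+ cells of WT mice. Vldlr, a lipoprotein receptor gene on that list, was higher in K14ΔNLef1 than in WT ITGA6+ cells by 2.99 ± 0.22 (adjusted p = 1.41e-06). Between the populations it was lower in CD34+ITGA6+ cells of K14ΔNLef1 mice (-1.20 ± 0.22, adjusted p = 0.00221) and higher in those of WT mice (1.503 ± 0.22, adjusted p = 0.00024), and the difference of the effects was called (-2.70 ± 0.31, adjusted p = 0.000344). The list's other tested genes were not called by genotype, and neither of the 2 tested kinases of eIF2, Eif2ak2 and Eif2ak3, was called in any comparison, with the lowest unadjusted p of 0.0738 for Eif2ak3 in the WT population comparison.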

How the data were processed

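Sorted cells gave RNA that was amplified, labelled with biotin and hybridised to Affymetrix Mouse Exon 1.0 ST arrays. The deposited values are linear intensities, 1 per probe set and array, normalised by the authors by RMA (robust multi-array average), for which the notes of the submitters list Affymetrix Power Tools and the mm9 build without versions. RMA adjusts arrays to each other and can remove part of a change shared by most genes. The choice of the 114330 probe sets is not stated.

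Intensities were converted to log2. Of the probe sets, 109796 had 1 gene symbol in the platform annotation, 836 had several and 3698 had none. Symbols were updated through the RefSeq table of GRCm38.p6, which added 3 members (Eif2d, Mrpl57 and Mrpl58) to those matched as annotated and removed 1. The 122 members had 764 probe sets, 5 in the median gene, and 21 members had 1. With limma 3.58.1 (R 4.3.3) group means were estimated jointly over the 12 arrays for 5712 genes, and the script was tested on simulated data. Differences are K14ΔNLef1 minus WT, or CD34+ITGA6+ minus ITGA6+, as estimate ± standard error with 3 arrays a group, and p-values are two-sided. The population differences of the 2 genotypes share no arrays, whereas a genotype and a population difference share an arm. The number of arrays limits the precision, and levels were not compared between genes.

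The members, the lists and the tests were chosen with earlier results of these data known. Genes were named by rule: called members (the 10 with the lowest adjusted p in full), the 2 highest and 2 lowest differences of a set with fewer than 3 calls, up to 3 called genes of each other list, the genes that define the groups, and the X and Y copies of Eif2s3. Same-numbered arrays of the 2 populations deviated together in WT mice (r from 0.109 to 0.233 in 3 pairs, against -0.16 to 0.0473 in 6 pairs of different number), which was taken as pairing there. In K14ΔNLef1 mice r was 0.0688 to 0.133, with 2 of 3 pairs over 0.1, against -0.118 to -0.0056. Same-numbered pairs were thus the higher ones there too, at lower r, and pairing is possible. Between genotypes numbers did not pair arrays (1 of 3 pairs over 0.1 in CD34+ITGA6+ and 0 of 3 in ITGA6+ cells). The fit without a block was the main one throughout. Its p-values therefore take no account of the pairing in WT mice or of possible pairing in K14ΔNLef1 mice. Alternatives were median centring, quantile normalization, other summaries of probe sets, other filters, fits to the arrays compared alone, the replicate number as a block over both genotypes or within each, symbols as annotated, and leaving out arrays.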

Additional observations from a re-analysis of the deposited data

How the results depend on the processing

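Gene values were recomputed only for members called in the main fit. Of 474 such values none changed its sign, 324 kept the call and 150 lost it. As called genes have the larger differences, and the replicate blocks left the differences unchanged, the kept signs say little. Of 516 recomputed counts and set medians, 486 stayed within the limits set for them. The limit was a fixed ratio to the main count, or for a set median its pooled SD over the arrays of a group. Many of these values could not move. Leaving out an array changes no set median or count of lower members in a contrast without its group, nor do the replicate blocks. The number that stayed is therefore no measure of stability. The Eif4e3 call in ITGA6+ cells, 1 in all, became 0 with the mean over probe sets, with a filter at the 75th percentile and with only genes above the array median on all 12 arrays, none of which tested the gene. The last setting was chosen after seeing the data, as was leaving out 2 arrays below. The 12 calls in K14ΔNLef1 mice became 6 with only the probe sets above the array median, with no filter, with the 75th percentile filter and with the all-array filter, and 3 without replicate 2 of both CD34+ITGA6+ groups. The 8 calls in WT mice became 3 with no filter and with the all-array filter, and 4 without those 2 arrays. The stricter filter tested 53 members, of which 49 (K14ΔNLef1) and 47 (WT) were lower in CD34+ITGA6+ cells. Without those 2 arrays the median differences in K14ΔNLef1 mice were -0.28 for cytosolic ribosomal proteins and -0.25 for Eif genes. Leaving out 1 array at a time, the calls ranged from 0 to 1 for the genotype effect in ITGA6+ cells, from 2 to 22 for the population difference in K14ΔNLef1 mice and from 2 to 9 in WT mice. The median difference ranged from -0.79 to -0.28 for cytosolic ribosomal proteins and from -0.50 to -0.25 for Eif genes in K14ΔNLef1 mice, and from -0.12 to 0.11 for the difference of the genotype effect of Eif genes. Beyond the smaller number of arrays or genes, the cause was not tested. After quantile normalization 93 (K14ΔNLef1) and 87 (WT) of 106 members were lower in CD34+ITGA6+ cells, beside 55.7% and 56.2% of all genes. Median centring left the median of all genes at -0.07 and -0.08 in the population comparisons, where it had been -0.15 and -0.17, and ended the calls of 2 members in each genotype.

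A block per replicate number over both genotypes gave 0 and 1 calls for the genotype effect in CD34+ITGA6+ and ITGA6+ cells, 14 and 11 for the population contrast of K14ΔNLef1 and WT mice, and 0 for the difference of effects, with Mrps28 lost in K14ΔNLef1 and Mrpl3 in WT mice. A replicate block within each genotype, chosen after seeing the data, gave 16 and 10 calls for the population contrast of K14ΔNLef1 and WT mice and 0 for the difference of effects, with Eif3g lost in both (adjusted p = 0.0512 and 0.0629) and Mrpl54 in WT mice. The blocks ended no other call of a member, and the rest of the change in counts was calls gained.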
